A study of Mus musculus with 6 samples.

Results

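The mitophagy receptors and mitochondrial fusion-fission genes described here are 10 genes, chosen by symbol from the 24421 rows of the deposited expression table: the kinase gene Pink1, the receptor genes Bnip3, Bnip3l and Fundc1, the fusion genes Mfn1, Mfn2 and Opa1, and the fission genes Dnm1l, Fis1 and Mff. All 10 were found, and all 10 passed the filter of at least 1 FPKM in at least 3 libraries. Messenger RNA had been sequenced from primary mouse kidney proximal tubular epithelial cells, which line the first segment of the tubule. There were 3 libraries labelled Atg5KO and 3 labelled Atg5F/F, the floxed control. The cells of both groups had received 20 µM erastin2 for 24 h. Erastin2 blocks cystine uptake through system xc- and can lead to ferroptosis, an iron-dependent death by lipid peroxidation. The labels name neither the recombinase that deleted Atg5 nor the exon it removed, nor the animal or culture behind any replicate. The spread that enters the p-values is that between these libraries, and it may be technical. All 6 libraries came from drug-treated cells, so a difference of genotype alone and a difference in the response to erastin2 cannot be told apart.

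Mitochondria form a network whose shape is set by fusion and division. The mitofusins MFN1 and MFN2 join outer membranes and OPA1 joins inner membranes, whereas the dynamin DRP1, encoded by Dnm1l, is brought to the surface by anchors such as MFF and FIS1 and cuts the tubule. Damaged mitochondria are removed by mitophagy, a selective autophagy. The kinase PINK1 accumulates on depolarized mitochondria and recruits the ubiquitin ligase parkin, while BNIP3, its paralogue BNIP3L (NIX) and FUNDC1 sit in the outer membrane and bind LC3-family proteins directly. ATG5 belongs to the machinery that attaches those LC3-family proteins to the forming autophagosome membrane. Proximal tubule cells are rich in mitochondria and depend on them for transport.

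Promoter sequence was available for 9 of the 10 genes, from RefSeq on GRCm38.p6. Each window below runs from 250 to 21 bases before the most upstream RefSeq start, on the strand of the gene (the minus strand for all 3). Windows are shown for Pink1, the gene with the largest increase, for Mfn2, the single decrease, and for Bnip3, a known target of hypoxia-inducible factors whose level did not pass the test. Capitals mark matches to the motifs searched on both strands, and the windows lie at chr4:138326317-138326546 (Pink1), chr4:147904930-147905159 (Mfn2) and chr7:138909527-138909756 (Bnip3).
Pink1: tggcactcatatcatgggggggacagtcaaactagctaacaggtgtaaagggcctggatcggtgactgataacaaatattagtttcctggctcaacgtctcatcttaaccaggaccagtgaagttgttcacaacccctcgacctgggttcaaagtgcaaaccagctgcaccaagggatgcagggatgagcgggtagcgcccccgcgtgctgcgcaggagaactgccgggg
Mfn2: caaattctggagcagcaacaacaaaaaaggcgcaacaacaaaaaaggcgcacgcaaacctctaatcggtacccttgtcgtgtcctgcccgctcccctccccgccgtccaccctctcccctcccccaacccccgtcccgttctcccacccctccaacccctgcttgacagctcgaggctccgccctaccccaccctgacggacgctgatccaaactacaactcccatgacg
Bnip3: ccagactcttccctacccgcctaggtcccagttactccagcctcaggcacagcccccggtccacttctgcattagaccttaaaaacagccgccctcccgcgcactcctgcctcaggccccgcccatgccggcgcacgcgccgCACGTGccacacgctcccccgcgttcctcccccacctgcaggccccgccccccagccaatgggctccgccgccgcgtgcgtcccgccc
The motifs searched were ACGTG (core of the hypoxia-inducible factor site), CACGTG (the E-box bound by the TFEB family and others), GTAAACA (FOXO), AAGGTCA (ERR), TGATGNAA (ATF4) and TGACNNNGC (NRF2). The Bnip3 window held a CACGTG, which also contains ACGTG on either strand. No other match was found in the windows of the 9 genes, of which those of Fundc1 and Mff overlap annotated exons. Among all 32851 promoter windows of that length, 5.3% held CACGTG and 15.1% held ACGTG, and the other motifs were in 2.9% (GTAAACA), 3.8% (AAGGTCA), 3.2% (TGATGNAA) and 9.2% (TGACNNNGC). A match is a string of letters and not a binding site, and its absence says only that these letters are not in the window. GC content was 54.8% in the Pink1 window, 60.9% in the Mfn2 window and 71.7% in the Bnip3 window.

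The deposited values are FPKM, fragments scaled to gene length and library total, so levels of different genes can be set side by side approximately. A trend on gene length that differed between libraries remained in them (given with Fis1 below), and the counting annotation is not stated. The read totals that the values imply were 16922491 to 19724355 in Atg5KO libraries and 15528454 to 30004933 in Atg5F/F libraries. The 10 genes rested on 391 to 5095 reads per library, a counting error of 5.06% at the lowest and 1.4% at the highest. Atg5 itself, the targeted gene, was higher in the libraries labelled Atg5KO, at 12.5 ± 0.94 FPKM, against 8.55 ± 0.54 FPKM in Atg5F/F libraries (SD, n = 3 each; limma adjusted p = 5.5e-04). A value for the whole gene does not show whether an exon is missing, so every direction below rests on the labels. Of 13 genes listed as proximal tubule markers, which are not all confined to that segment, 7 reached the filter, among them Lrp2 (megalin) and Pax8. Cubn, Slc34a1, Slc5a2, Slc5a12 and Slc22a6 averaged under 1 FPKM, and Slc22a8 was listed at 0. The 13 summed to 369.1 to 399.6 FPKM in Atg5KO libraries and to 516.0 to 543.1 FPKM in Atg5F/F libraries, with 5 called lower and 1 higher. Pax8 held the largest part of the sum, at 240.9 ± 9.8 FPKM in Atg5KO and 233.6 ± 3.9 FPKM in Atg5F/F libraries, and was not called. Among the 5 lower, Ggt1 averaged 54.4 FPKM in Atg5KO and 126.5 FPKM in Atg5F/F libraries, and Cdh16 16.8 and 82.1 FPKM. Fibroblast and pericyte markers summed to 6.66 to 9.40 FPKM in Atg5KO libraries and to 0.854 to 1.12 FPKM in Atg5F/F libraries, and Postn was the single marker of those 8 that reached the filter. Endothelial markers summed to 5.27 to 6.56 FPKM in Atg5KO and 8.49 to 10.0 FPKM in Atg5F/F libraries, with Pecam1 and Cdh5 near 0 and Kdr alone above the filter. Leukocyte markers summed to 10.3 to 12.55 FPKM in Atg5KO and 10.96 to 13.28 FPKM in Atg5F/F libraries, nearly all of it Csf1r and Cd68. Ptprc averaged 0.025 FPKM in Atg5KO and 0.041 FPKM in Atg5F/F libraries, and Adgre1 was listed at 0. Podocyte markers summed to 2.55 to 3.26 FPKM in Atg5KO and 1.5 to 1.66 FPKM in Atg5F/F libraries, nearly all of it Podxl. Loop, distal tubule and collecting duct markers stayed under 0.24 FPKM in every library, with Aqp2 and Foxi1 listed at 0. The part of these shifts in the differences below was not tested, and in bulk RNA fewer cells of a type and less RNA per cell cannot be told apart.

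The kinase gene Pink1 and the receptor genes Bnip3l and Fundc1 were higher in Atg5KO libraries by 23.3%, 19.7% and 15.9% of their Atg5F/F means. Mfn2 was lower, with a change of -7.34%. The other 6 genes, namely Bnip3, the fusion genes Mfn1 and Opa1 and the fission genes Dnm1l, Fis1 and Mff, did not pass the test. Calls were made with limma on log2(FPKM + 1), at a Benjamini-Hochberg adjusted p under 0.05 over 11559 genes. Called genes thus numbered 4 of 10, 3 higher and 1 lower. Over all genes tested 39.2% were called (21.3% higher and 17.9% lower), so the share called among the 10 was near the background. The median log2 fold change of the 10 was 0.09, against 0.02 over all genes tested, and the median absolute value was 0.105 (all genes, 0.135). The authors' deposited table gave the same 4 genes an FDR under 0.05, in the same directions, where 22.0% of its 24421 rows did so. Those rows include genes without reads (18296 were above 0 in at least 1 library), whereas all 10 genes passed the filter. The 22.0% is thus not a like background for them.

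**Figure D1:**
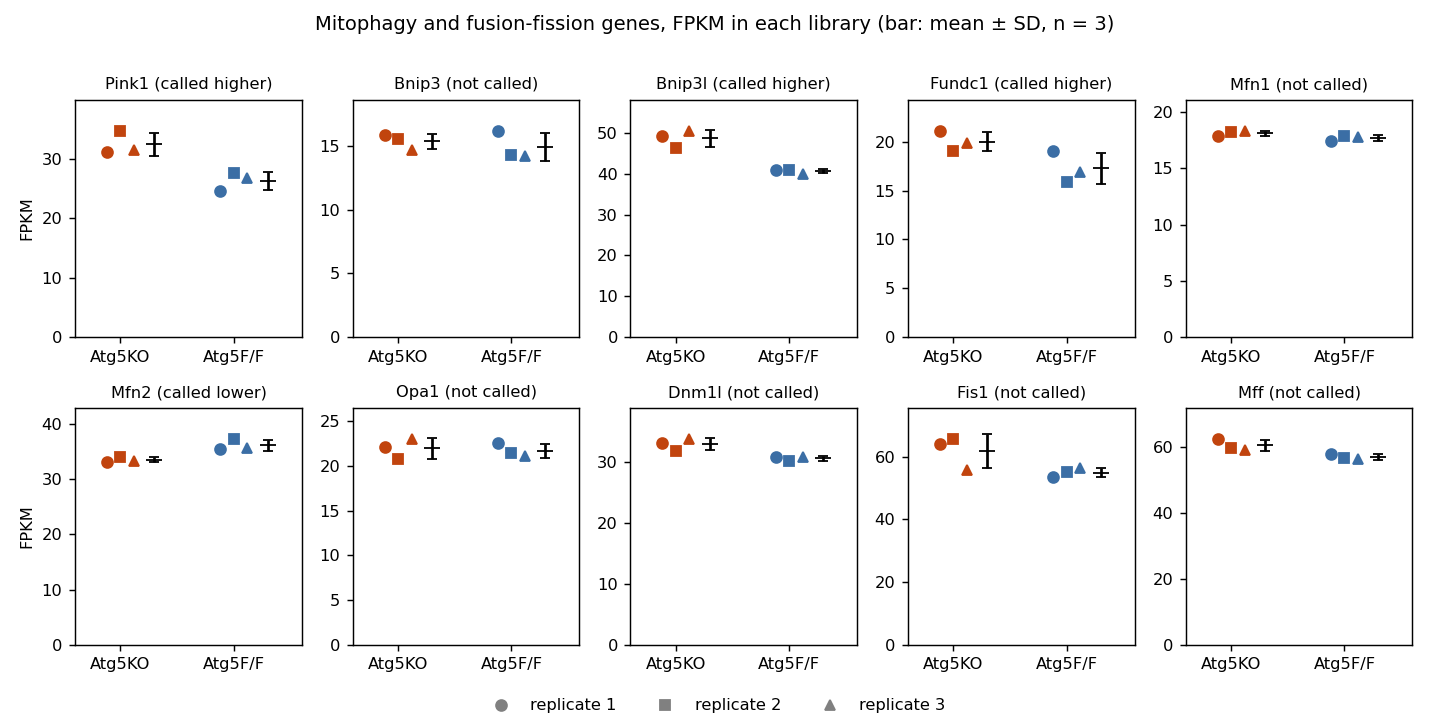
FPKM (y axes, each from 0) of the 10 genes in each Atg5KO library (left, red) and Atg5F/F library (right, blue). Marker shapes give the replicate number, and the bar beside each group is the mean ± SD (n = 3). Pink1, Bnip3l, Fundc1, Dnm1l and Mff lay higher in every Atg5KO library than in any Atg5F/F library, and Mfn2 lay lower.

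Pink1 encodes the serine-threonine kinase that starts parkin-dependent mitophagy (chromosome 4, 138313409 to 138326307 in GRCm38, minus strand). It stood at 31.2, 34.6 and 31.4 FPKM in Atg5KO replicates 1 to 3, and at 24.6, 27.5 and 26.8 FPKM in Atg5F/F replicates 1 to 3. Every Atg5KO value lay above every Atg5F/F value, and the gap between the groups was larger than the range within Atg5KO or Atg5F/F libraries. The means were 32.4 ± 1.9 FPKM in Atg5KO and 26.3 ± 1.5 FPKM in Atg5F/F libraries (SD, n = 3 each), and the log2 fold change was 0.29 (SE 0.057, adjusted p = 0.0041, limma). Of all genes tested, 18.7% had a larger absolute log2 fold change. Pink1 was called under all 17 alternative settings, with log2 fold changes of 0.24 to 0.32. The authors' deposited table gave it a log2 fold change of 0.28 and an FDR of 6.5e-06.

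Of the 3 receptor genes, Bnip3l and Fundc1 were called higher and Bnip3 was not called. Bnip3l, whose product NIX removes mitochondria from maturing red blood cells (chromosome 14, 66985239 to 67008877, minus strand), gave 49.16, 46.41 and 50.45 FPKM in Atg5KO replicates 1 to 3. Its Atg5F/F replicates stood at 40.99, 41.04 and 40.01 FPKM. The Atg5F/F values were nearly equal, and the lowest Atg5KO value was still above all of them. Bnip3l averaged 48.7 ± 2.1 FPKM in Atg5KO and 40.7 ± 0.58 FPKM in Atg5F/F libraries, which gave a log2 fold change of 0.25 (SE 0.041) and the smallest adjusted p of the 10 genes (0.0016, limma). It was called under all 17 alternatives (0.22 to 0.29), and the authors' deposited table gave it 0.23 and an FDR of 1.3e-05. A transcribed processed pseudogene, Bnip3l-ps, is annotated on chromosome 12 (18216542 to 18217673). How reads that fit both places were counted is not given in the sources used here, so the Bnip3l level is uncertain to that extent.

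Fundc1, a receptor linked to mitophagy in low oxygen (chromosome X, 17556564 to 17572325, minus strand), stood at 21.1, 19.1 and 19.9 FPKM in Atg5KO replicates and at 19.0, 15.9 and 16.9 FPKM in Atg5F/F replicates. The groups barely separated: Atg5KO replicate 2 and Atg5F/F replicate 1 were almost level. Means were 20.0 ± 1.0 FPKM in Atg5KO and 17.3 ± 1.6 FPKM in Atg5F/F libraries, and limma gave a log2 fold change of 0.20 (SE 0.067, adjusted p = 0.038). The call was lost without Atg5KO replicate 1, Atg5KO replicate 3, Atg5F/F replicate 2 or Atg5F/F replicate 3 (limma adjusted p 0.074 to 0.12, log2 fold changes 0.15 to 0.21). It was lost too with no filter on low values (0.084), under quantile normalization (0.064) and without a variance trend (0.059).

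Bnip3, the hypoxia-inducible paralogue of Bnip3l (chromosome 7, 138890836 to 138909519, minus strand), was the lowest of the 10 genes. Its FPKM values were 15.9, 15.6 and 14.7 in Atg5KO replicates, against 16.2, 14.3 and 14.2 in Atg5F/F replicates. The ranges overlapped, with the single highest value in an Atg5F/F library. The log2 fold change was 0.04 with a 95% interval of -0.09 to 0.17 (adjusted p = 0.58, limma), so a change of the size seen in Bnip3l lay outside the interval. No alternative setting called Bnip3, and its values there ran from 0.01 to 0.10. The hypoxia-inducible factor gene Hif1a averaged 41.9 ± 2.2 FPKM in Atg5KO and 42.3 ± 1.3 FPKM in Atg5F/F libraries (log2 fold change -0.01, limma adjusted p = 0.82). Of the other such genes listed, Arnt was not called (-0.10, limma adjusted p = 0.094). Epas1 was below the filter, at 0.63 FPKM in Atg5KO and 0.50 FPKM in Atg5F/F libraries. Levels of these RNAs do not show the activity of the factors. The paralogues were also compared within each library. The ratio of Bnip3 to Bnip3l was 0.322, 0.336 and 0.292 in Atg5KO replicates and 0.395, 0.349 and 0.356 in Atg5F/F replicates. Its log2 value differed by -0.21 between the groups (-0.26 to -0.15 with each library left out; exact permutation test, two-sided, p = 0.1, the smallest that 3 against 3 can give).

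**Figure D2:**
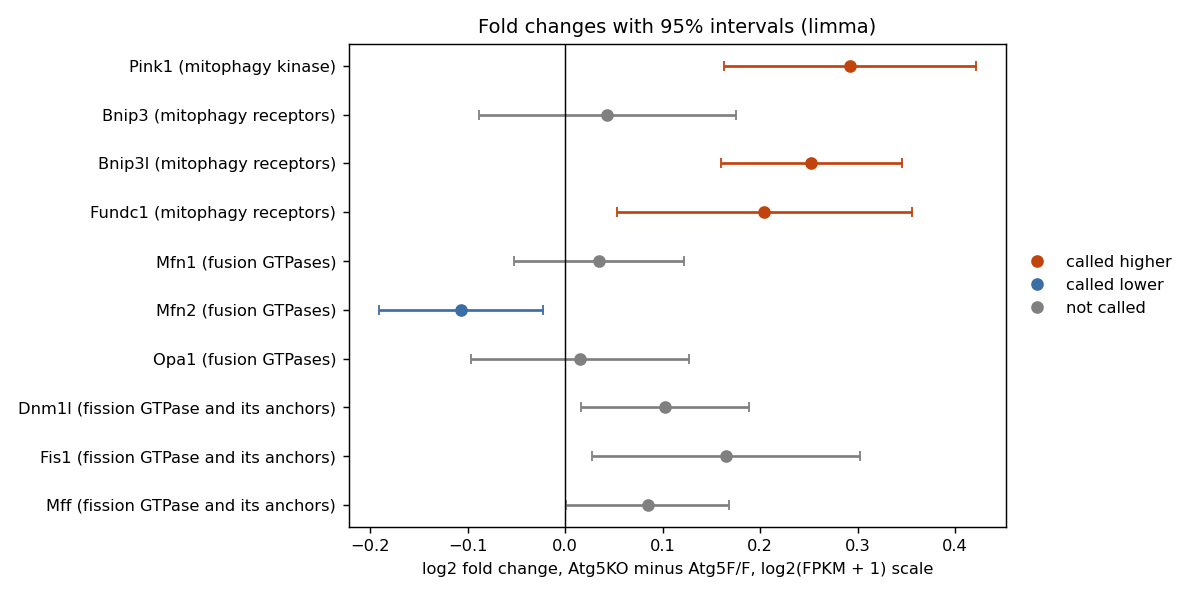
Log2 fold change (x axis, Atg5KO minus Atg5F/F on the log2(FPKM + 1) scale) of each gene, with its 95% interval from limma (n = 3 each). Red marks genes called higher, blue the gene called lower and grey those not called. Pink1 and Bnip3l lie farthest right, at 0.29 and 0.25, and Mfn2 is the single point left of 0, at -0.11.

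Among the fusion genes, Mfn2 was lower in Atg5KO libraries and neither Mfn1 nor Opa1 passed the test. Mfn2 encodes the mitofusin that also tethers mitochondria to the endoplasmic reticulum (chromosome 4, 147873599 to 147904704, minus strand). It stood at 33.2, 34.1 and 33.4 FPKM in Atg5KO replicates and at 35.6, 37.4 and 35.6 FPKM in Atg5F/F replicates. All Atg5KO values were below all Atg5F/F values, by a narrow margin. Means of 33.6 ± 0.46 FPKM in Atg5KO and 36.2 ± 1.0 FPKM in Atg5F/F libraries differed by -0.11 on the log2 scale (SE 0.037, adjusted p = 0.049, limma). This call sat at the threshold. Without any 1 of the 6 libraries it was lost (limma adjusted p 0.066 to 0.13, log2 fold changes -0.12 to -0.08), and likewise with robust variance estimates (0.054) or without a variance trend (0.083). With each library's trend on gene length removed the value was -0.17 and called (limma adjusted p = 0.0077), and the authors' deposited table gave -0.14 with an FDR of 0.016.

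Mfn1, the other mitofusin gene (chromosome 3, 32529465 to 32579239, plus strand), had 17.9, 18.2 and 18.3 FPKM in Atg5KO replicates and 17.4, 17.9 and 17.8 FPKM in Atg5F/F replicates. Its SD in FPKM was the smallest of the 10 genes in Atg5KO (0.22) and in Atg5F/F libraries (0.26), and the ranges overlapped. Its log2 fold change was 0.03 (95% interval -0.05 to 0.12, limma adjusted p = 0.50). Opa1, which encodes the inner membrane fusion GTPase (chromosome 16, 29579334 to 29654884, plus strand), gave 22.1, 20.8 and 23.0 FPKM in Atg5KO replicates and 22.6, 21.4 and 21.1 FPKM in Atg5F/F replicates. Its groups overlapped, with a log2 fold change of 0.02 (95% interval -0.10 to 0.13, limma adjusted p = 0.82). The sign was not fixed for either gene: with the length trend removed Mfn1 stood at -0.02 and Opa1 at -0.06, and no setting called them. OPA1 is regulated by splicing and proteolysis, which a level of the whole gene does not show (8 transcripts are annotated in GENCODE vM21).

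The mitofusins were also compared within each library. The ratio of Mfn1 to Mfn2 was 0.539, 0.535 and 0.548 in Atg5KO replicates and 0.489, 0.479 and 0.498 in Atg5F/F replicates. Every Atg5KO ratio lay above all Atg5F/F ratios, and the difference on the log2 scale was 0.15 (0.13 to 0.16 with each library left out in turn). An exact two-sided permutation test gave p = 0.1, the smallest value this design allows.

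The fission genes all lay on the positive side, and none passed the test. Dnm1l, which encodes the dynamin DRP1 that constricts the outer membrane (chromosome 16, 16312230 to 16358959, minus strand), stood at 33.2, 31.9 and 33.9 FPKM in Atg5KO replicates and at 30.9, 30.2 and 30.9 FPKM in Atg5F/F replicates. The groups did not overlap, yet the log2 fold change of 0.10 (95% interval 0.02 to 0.19) missed the threshold (limma adjusted p = 0.059). Without Atg5KO replicate 2 it was 0.13 and called (limma adjusted p = 0.045), the only alternative that called Dnm1l. With the length trend removed the Dnm1l value was 0.05 and not called (limma adjusted p = 0.30). Mff, the main receptor of DRP1 on mitochondria and peroxisomes (chromosome 1, 82724890 to 82752394, plus strand), gave 62.4, 59.6 and 59.1 FPKM in Atg5KO replicates and 57.8, 56.6 and 56.2 FPKM in Atg5F/F replicates. Here too the groups did not overlap, by a small gap, and the log2 fold change was 0.08 (limma adjusted p = 0.099). It was 0.11 and called with the length trend removed (limma adjusted p = 0.037).

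Fis1, a tail-anchored outer membrane protein first found as a fission factor in yeast (chromosome 5, 136953275 to 136966234, plus strand), was not called with all libraries and called without Atg5KO replicate 3. It stood at 64.0, 65.7 and 55.7 FPKM in Atg5KO replicates 1 to 3 and at 53.3, 55.2 and 56.2 FPKM in Atg5F/F replicates 1 to 3. Replicates 1 and 2 of Atg5KO lay above all others, whereas replicate 3 fell among the Atg5F/F values. Means of 61.8 ± 5.3 FPKM in Atg5KO and 54.9 ± 1.5 FPKM in Atg5F/F libraries differed by 0.16 on the log2 scale (SE 0.060, adjusted p = 0.058, limma). Without that library the value was 0.24 (limma adjusted p = 0.0034). Fis1 has the shortest implied length of the 10 genes, 1102 bases, against 6002 for Opa1, the longest. In Atg5KO replicate 3 a gene's deviation from its mean rose with implied length (Spearman rho 0.34 across 11557 genes, which are not independent). The rho was 0.11 and 0.04 in the other Atg5KO libraries and -0.23 to -0.16 in Atg5F/F libraries. After removal of the trend Fis1 was called, at 0.22 (limma adjusted p = 0.0041), as it was under quantile normalization (0.19, limma adjusted p = 0.029), with voom on the recovered reads (0.15, limma adjusted p = 0.041) and with a filter of 5 FPKM (limma adjusted p = 0.048). The part of the length trend in the value of Atg5KO replicate 3 was not tested.

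**Figure D3:**
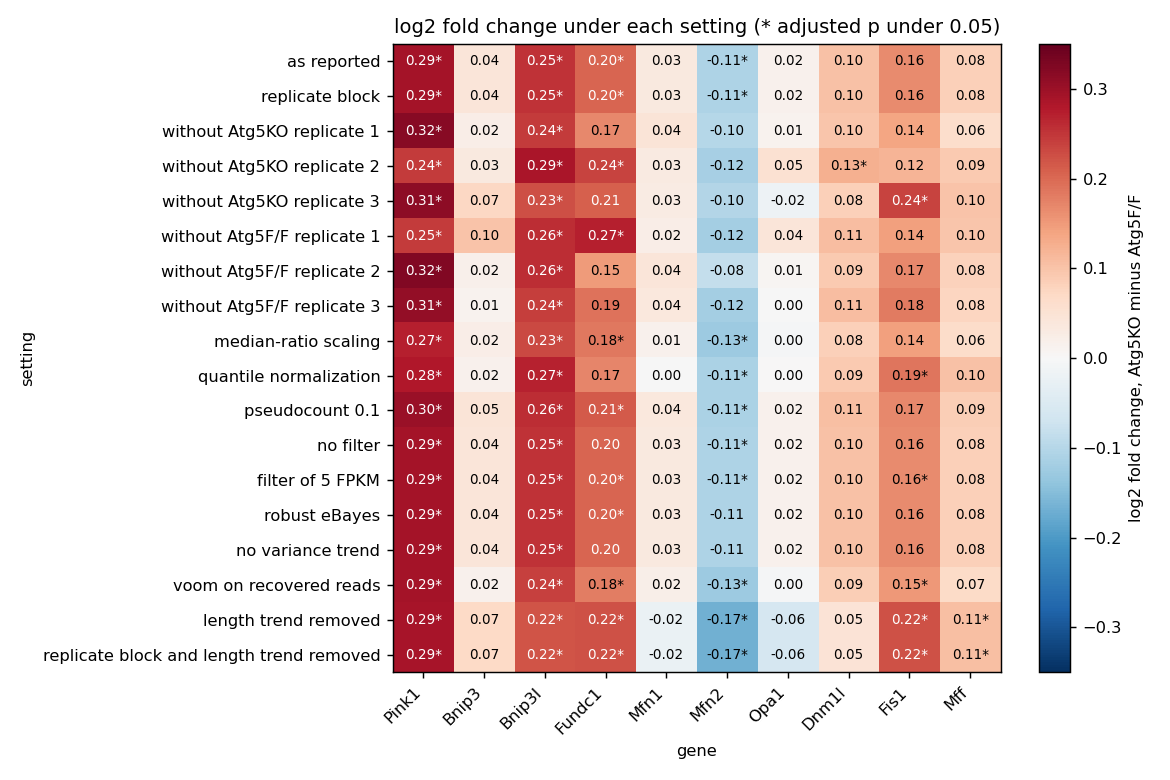
Log2 fold change (color and printed value, Atg5KO minus Atg5F/F) of the 10 genes (columns) as reported (top row) and under 17 alternative settings (other rows). An asterisk marks an adjusted p under 0.05. Pink1 and Bnip3l carry one in every row, and Mfn2 in none of the 6 rows that leave out a library.

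Counted by whether the groups overlapped, 6 of the 10 genes were apart, 5 higher (Pink1, Bnip3l, Fundc1, Dnm1l and Mff) and 1 lower (Mfn2) in Atg5KO libraries. Over all genes tested 51.9% were apart, 28.7% higher and 23.2% lower, so this count too was near the background. Summed by role, the fission genes held 149 to 160 FPKM in Atg5KO and 142 to 143 FPKM in Atg5F/F libraries. The fusion genes held 73.1 to 74.8 FPKM in Atg5KO and 74.5 to 76.7 FPKM in Atg5F/F libraries. The quotient of the fusion sum over the fission sum was therefore 0.459, 0.465 and 0.503 in Atg5KO replicates and 0.532, 0.540 and 0.520 in Atg5F/F replicates, with no overlap. These sums combine genes already described and were given no test. The fission sum includes Fis1, the shortest of the 10 genes, and the fusion sum Opa1, the longest. The part of the length trend in the quotient was not tested.

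**Figure D4:**
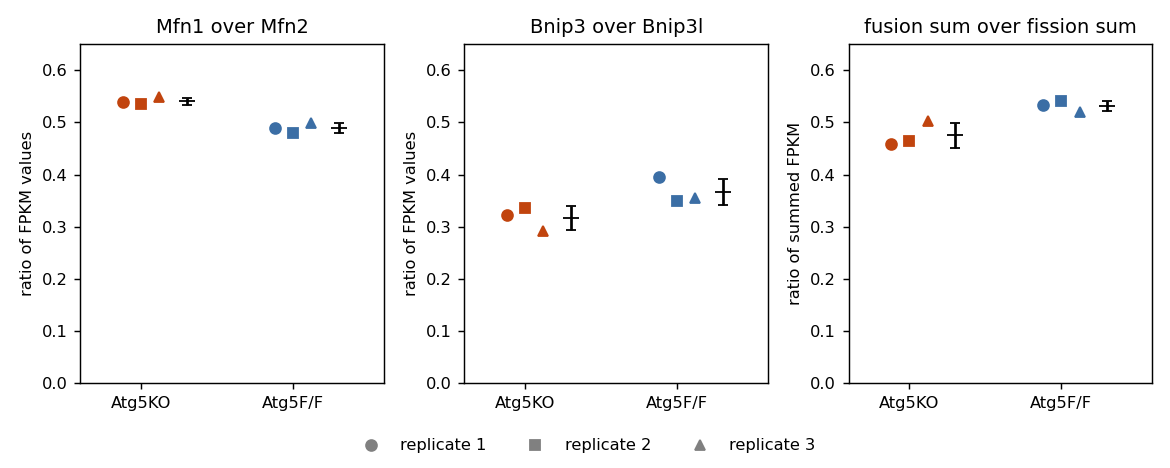
Ratios of FPKM values (y axes, from 0) in each Atg5KO library (left, red) and Atg5F/F library (right, blue): Mfn1 over Mfn2, Bnip3 over Bnip3l, and the sum of the 3 fusion genes over the sum of the 3 fission genes. Bars are mean ± SD (n = 3). The Mfn1 ratio is higher in all 3 Atg5KO libraries (0.535 to 0.548, against 0.479 to 0.498), and the other ratios are lower.

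In order of level per length, Fis1 and Mff led in Atg5KO and in Atg5F/F libraries and their ranges overlapped, so their order was not resolved. Bnip3l came next, followed by Mfn2, Dnm1l and Pink1. In Atg5KO libraries these last 3 overlapped in neighbouring pairs, at means of 33.6, 33.0 and 32.4 FPKM. In Atg5F/F libraries they stood apart from each other, at 36.2, 30.7 and 26.3 FPKM. Opa1, Fundc1, Mfn1 and Bnip3 formed the lower end, with means of 21.97, 20.02, 18.2 and 15.4 FPKM in Atg5KO and 21.7, 17.3, 17.7 and 14.9 FPKM in Atg5F/F libraries. Within that lower end, Opa1 and Fundc1 overlapped in Atg5KO libraries, whereas Mfn1 and Fundc1, and Fundc1 and Bnip3, overlapped in Atg5F/F libraries. Every gene of the 10 was above the median level of the genes tested, from the 53.3 percentile for Bnip3 to the 88.7 percentile for Mff.

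Among other genes of mitophagy and mitochondrial shape, more were called lower than higher. The background over all genes tested was 21.3% called higher and 17.9% called lower. Of 100 related genes listed, 92 were tested, of which 7 were called higher and 25 lower. That made 34.8% called, against 39.2% of all genes, and the median log2 fold change of the 92 was -0.05. The count of higher genes was 4 without Atg5KO replicate 3, 3 without Atg5F/F replicate 2, and also 4 without Atg5F/F replicate 3 or with the length trend removed. Without Atg5F/F replicate 3, 13 were lower. The separate lists below hold 8 to 16 tested genes each, so their counts rest on few genes. They were not tested against the shares over all genes. For each called gene named from these lists the groups did not overlap, and the limma adjusted p was 2.5e-04 to 0.042. The value given is the difference of Atg5KO minus Atg5F/F on the log2 scale.

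In the PINK1-parkin arm, 5 of 16 tested genes were lower and 0 higher (median -0.06; 4 or 5 lower with each library left out in turn, with 1 higher when Atg5KO replicate 1 was left out or with the replicate block and length trend removal together). The 4 largest decreases were those of Park7, which encodes the redox sensor DJ-1, at 145.3 ± 10 FPKM in Atg5KO and 190.7 ± 5.3 FPKM in Atg5F/F libraries (-0.39), Tufm, the mitochondrial translation elongation factor (-0.32), Pmpcb, a subunit of the processing peptidase that cleaves imported PINK1 (-0.17), and Vcp, the segregase that extracts ubiquitinated outer membrane proteins (-0.17). Under quantile normalization Vcp was at -0.10 and not called. Parkin itself, listed under its older symbol Park2, was below the filter. It held 35, 31 and 35 reads in Atg5KO replicates and 71, 45 and 44 reads in Atg5F/F replicates, or 0.585 ± 0.039 FPKM in Atg5KO and 0.753 ± 0.15 FPKM in Atg5F/F libraries. Park2 was singled out after its values were seen, and the groups overlapped.

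Among the other receptors and adaptors, 3 of 16 were higher and 4 lower (median -0.025). Sqstm1, which encodes the cargo receptor p62, averaged 1018 ± 17 FPKM in Atg5KO and 1365 ± 65 FPKM in Atg5F/F libraries (-0.42, and -0.22 under quantile normalization, called in each case). Optn, the ubiquitin-binding adaptor optineurin that acts with PINK1, was higher, at 18.7 ± 0.14 FPKM in Atg5KO and 16.2 ± 0.80 FPKM in Atg5F/F libraries (0.20). Phb, a prohibitin of the inner membrane, was lower (-0.21) and Src, a kinase that phosphorylates FUNDC1, was higher (0.16). The Phb call was lost under 7 of 17 alternatives: without Atg5KO replicate 2 or 3, without Atg5F/F replicate 2 or 3, with no filter, without a variance trend, and with the replicate block and length trend removal together. The Src call was lost without Atg5KO replicate 2, Atg5F/F replicate 1 or 2, or with the length trend removed (0.12). Left without Atg5KO replicate 3, Atg5F/F replicate 2 or Atg5F/F replicate 3, the list had 1 lower gene, as it did with no filter or without a variance trend. With Atg5F/F replicate 1 left out, the length trend removed or quantile normalization it had 2. It had 1 higher gene without Atg5KO replicate 2, Atg5F/F replicate 1 or Atg5F/F replicate 2, or with the length trend removed. Calcoco2 was listed at 0 in every library.

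Fission adaptors and regulators had 2 of 15 higher and 3 lower (median -0.08). Mtfp1, an inner membrane fission factor, was lower from a small base, at 1.90 ± 0.20 FPKM in Atg5KO and 2.86 ± 0.38 FPKM in Atg5F/F libraries (-0.41, and -0.63 with voom, which uses no such pseudocount). Akap1, the anchor that brings protein kinase A to mitochondria where it inhibits DRP1, was lower (-0.24), as was Dnm2, a dynamin mainly of endocytosis (-0.19, not called without Atg5KO replicate 1 or Atg5F/F replicate 3). Senp5, a SUMO protease acting on DRP1, was higher (0.17; 0.09 and not called with the length trend removed). With that trend removed, 0 of the list were higher and 5 lower, and with voom 6 were lower. A single gene was higher without a variance trend, or without Atg5KO replicate 1, Atg5KO replicate 3, Atg5F/F replicate 2 or Atg5F/F replicate 3.

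Fusion and cristae regulators had 5 of 16 lower and 0 higher (median -0.11), but 3 were lower without Atg5KO replicate 2 (when 1 was higher), Atg5F/F replicate 1 or Atg5F/F replicate 2, and 1 was lower without Atg5F/F replicate 3. With no filter 3 were lower, and with the replicate block 1 was higher. Chchd6, a subunit of the MICOS complex that shapes cristae, stood at 11.9 ± 1.0 FPKM in Atg5KO and 15.4 ± 1.3 FPKM in Atg5F/F libraries (-0.35). The scaffold gene Stoml2 (-0.21) and the MICOS subunit genes Immt (-0.15) and Apool (-0.14) were lower with calls that did not hold in every fit. The Stoml2 call was lost without Atg5F/F replicate 1 or 3 and with no filter, and its value was -0.14 without Atg5KO replicate 3. Calls were lost for the other 2 as well, the Immt call without Atg5KO replicate 2, Atg5F/F replicate 2 or Atg5F/F replicate 3, and the Apool call without any single library other than Atg5F/F replicate 2. Quantile normalization also ended the Immt call, and no filter, voom or removal of the length trend (-0.07) the Apool call.

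The 2 Miro genes, whose products link mitochondria to microtubule motors, were called in opposite directions. Rhot2 was lower, at 18.4 ± 0.60 FPKM in Atg5KO and 21.8 ± 0.27 FPKM in Atg5F/F libraries (-0.24). Rhot1 was higher, at 19.4 ± 0.73 FPKM in Atg5KO and 17.6 ± 0.54 FPKM in Atg5F/F libraries (0.13), but was called under only 6 of 17 alternatives. The Rhot1 call was lost without Atg5KO replicate 1 or 3, without Atg5F/F replicate 2 or 3, with median-ratio scaling (0.11), quantile normalization (0.10), voom (0.12), no filter or no variance trend. It was lost too with the length trend removed, with or without the replicate block (0.08). The motor adaptor gene Trak1 was also lower (-0.16, not called without Atg5F/F replicate 3), so that 1 of 8 transport genes was higher and 2 lower. The count of higher transport genes was 0 wherever the Rhot1 call was lost, and 1 was lower without Atg5F/F replicate 3.

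General mitochondrial genes, listed as an outer membrane and matrix reference, had 6 of 12 lower and 0 higher (median -0.10). With each library left out in turn, 4 to 6 were lower. The count was 4 without Atg5KO replicate 1, Atg5KO replicate 3, Atg5F/F replicate 1 or Atg5F/F replicate 3. The import pore gene Tomm40 stood at 36.7 ± 1.7 FPKM in Atg5KO and 45.5 ± 0.83 FPKM in Atg5F/F libraries (-0.30). The chaperone genes Hspa9 (-0.22) and Hspd1 (-0.19) and the citrate synthase gene Cs (-0.18) were lower as well. Under quantile normalization 2 of the 12 were lower, with a median of -0.04, and Hspd1 (-0.11) and Cs (-0.10) were not called. With the length trend removed 1 was higher and 5 lower. Of 9 tested transcription factors and coactivators known to act on genes of the group, Ppargc1a, the coactivator PGC-1alpha, was higher, at 6.34 ± 0.30 FPKM in Atg5KO and 4.22 ± 0.46 FPKM in Atg5F/F libraries (0.49), and 0 were lower (median 0.01). Under quantile normalization 2 of the 9 were higher, with the length trend removed 2 were higher and 1 lower, and with voom 1 was higher and 2 lower.

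**Figure D5:**
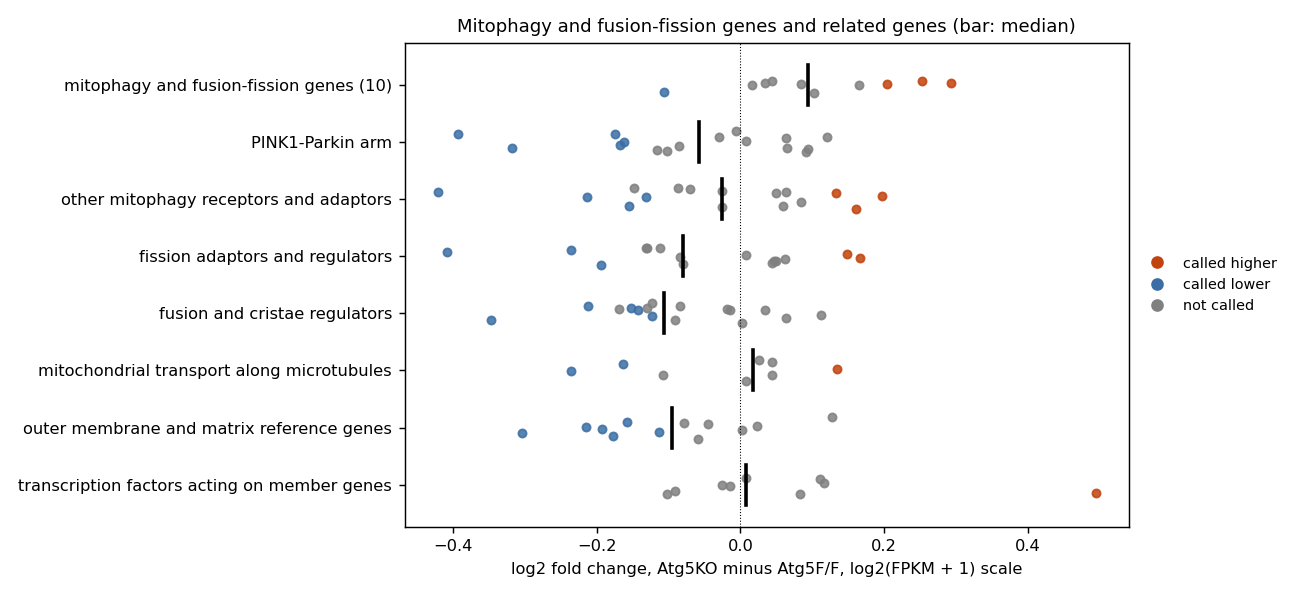
Log2 fold change (x axis, Atg5KO minus Atg5F/F) of the 10 mitophagy and fusion-fission genes (top row) and of the tested genes of each related list, 1 point per gene, with the median as a black bar. Red marks genes called higher, blue genes called lower and grey those not called. The listed outer membrane and matrix genes are the general mitochondrial genes of the text. The top row has its median at 0.09, and the lists of fusion and cristae regulators and of general mitochondrial genes at -0.11 and -0.10.

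Profiles over the 6 libraries were compared by the root mean square difference of centred log2(FPKM + 1) values, over the 10 genes and the related lists (101 other genes for each). Nearest to Bnip3l were Senp5 (0.05), Optn (0.06) and Rhot1 (0.06). Nearest to Pink1 were Src, Fis1 and Optn, each at 0.09. Fundc1 was nearest to Sh3glb1, a membrane-bending protein of autophagy and mitochondrial shape (0.06), to the protease gene Yme1l1 (0.06) and to Senp5 (0.07). Nearest to Mfn2 were Vdac1 (0.021), Ambra1 (0.022) and Afg3l2 (0.023). The measure favours genes with little spread and is a description only.

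In GENCODE vM21, exons of Bnip3, Dnm1l and Mff overlap exons of a gene on the opposite strand (Gm45507, Gm49521 and C430014B12Rik), and Pink1 exons overlap Gm27646 and Mir7019 on its own strand. The libraries came from a stranded kit, but the strand setting of the counting is not given in the sources used here. Reads shared with these partners cannot be set apart for those 4 genes. Mir7019 held at most 2 reads in any library.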

How the data were processed

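A stranded Illumina kit was used for messenger RNA libraries, per the labels' protocols. The submitters' processing notes name Trimmomatic 0.35, HISAT2 2.1.0, featureCounts 1.4.6, bcl2fastq, edgeR and the build GRCm38 (mm10). For the counting, annotation, strand setting and filters are not stated in these notes. One table was deposited, with which the authors gave an FPKM value per gene and library and, per the file headers, their log2 fold change, p-value, FDR and ranking score. Its p-value column is headed as adjusted, but Benjamini-Hochberg adjustment of it gives the FDR column.

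From these values, log2(FPKM + 1) was tested with limma 3.58.1 in R 4.3.3 (lmFit, eBayes with a variance trend) as Atg5KO minus Atg5F/F. The 11559 genes that reached 1 FPKM in 3 or more libraries entered, with Benjamini-Hochberg adjustment over all of them. The pseudocount understates fold changes, most for genes of low level. Whole reads were recovered from the steps of the FPKM values for 17027 of 17030 genes above 0 in at least 2 libraries (99.98%, tolerance 0.01 reads), and voom on these reads called 2493 genes higher and 2501 lower. The fit was tested on simulated data: of 200 genes changed 1.5-fold among 11470, it called 199, and it called 11 unchanged genes. The largest change among the mitophagy and fusion-fission genes, that of Pink1, was 1.23-fold. Changes of that size were not simulated, so the result does not show how often the fit calls them. Of the real genes 39.2% were called, a larger share than was changed in the simulation, so its count of false calls need not carry over.

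The 10 genes, the related lists and the markers were chosen with earlier results of these data known. Each list names up to 4 called genes with the largest change. March5, a listed symbol, was not matched. Alternatives comprised leaving out each library, a replicate block, scaling by median ratios or quantiles, other pseudocounts (0.1), filters (none, or 5 FPKM) and variance settings, voom, and a loess correction for gene length (span 0.5). Tables were handled with pandas 2.3.3 and numpy 2.4.6 under Python 3.11.15.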

Additional observations from a re-analysis of the deposited data

How the results depend on the processing

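Pink1 and Bnip3l were called under all 17 alternatives, whereas Fundc1 was called under 10 and Mfn2 under 9. Among the uncalled genes, Fis1 was called under 6, Mff under 2, Dnm1l under 1 and Bnip3, Mfn1 and Opa1 under 0. The count of genes called higher among the 10 was 5 with the length trend removed, with or without the replicate block, and 2 to 4 with each library left out. The count called lower was 0 with robust variance estimates, without a variance trend and with each library left out. Related genes called higher numbered 4 with the length trend removed and 3 to 6 with each library left out, and those called lower 13 to 21. Signs reversed for uncalled genes only: Mfn1 stood at -0.0022 under quantile normalization and at -0.024 with the length trend removed, alone or with the block. Opa1 stood at -0.0046 with median-ratio scaling, at -0.0045 with voom and at -0.059 with the length trend removed (alone or with the block). With each library left out Opa1 ranged from -0.0179 (without Atg5KO replicate 3) to 0.0539, and it was -0.0025 without Atg5F/F replicate 3. The cause of these shifts was not tested.

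The labels tie no animal, litter or day to a replicate number, so whether same-numbered libraries share a source is not known. Their deviations correlated at 0.16, 0.08 and -0.02, which cannot settle it. With the replicate block 3 of the 10 genes were called higher and 1 lower, and 2531 and 2137 of all genes (2457 and 2073 without it). With the numbers taken as pairs, the log2 differences of the Mfn1 to Mfn2 and Bnip3 to Bnip3l ratios kept their values of 0.15 and -0.21 (exact p = 0.25 each, the smallest that 3 pairs allow). Depth limited the reading of parkin, at 31 to 71 reads.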
